A study of Mus musculus with 15 samples.

Results

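The comparison asked what deletion of Setd2 did to gene expression in mouse prostate organoids that already lacked Ezh2. Of the 21886 genes that the deposited table of these organoids lists, 11338 had a mean of at least 1 RPKM (reads per kilobase of gene, scaled to the reads of the library) over its 8 libraries, and all of them entered the comparison. The genes on either side of that threshold were Trex2 (mean 1.0003 RPKM, kept) and Msrb2 (0.9985 RPKM, left out). The double null group (Setd2PC-/-;Ezh2PC-/-) was set against the Ezh2 null group (Ezh2PC-/-), with 2 libraries in each. Organoids are cultures that grow as small hollow structures from single epithelial cells, and these came from the prostates of C57BL/6 mice aged 3 months. All 4 groups of the table, which also hold 2 control libraries and 2 Setd2 null libraries (Setd2PC-/-), share a heterozygous deletion of another gene, which the controls carry too. The labels do not spell out PC. Each library held RNA pooled in equal mass from 3 biological replicates, so the spread between libraries is a spread between pools and may be smaller than that between animals. The sources used here do not give the promoter that drove the deletions or how many organoid lines stand behind a pool.

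SETD2 is the enzyme that places the third methyl group on lysine 36 of histone H3 (H3K36me3) along the bodies of transcribed genes. EZH2 carries the enzymatic activity of Polycomb repressive complex 2 (PRC2), which methylates lysine 27 of the same histone (H3K27me3) and keeps developmental genes silent, the Hox clusters among them. The prostate epithelium consists of basal cells, which rest on the matrix and express p63 and keratin 5, and luminal cells, which secrete the proteins of prostatic fluid. Stratified squamous epithelia such as skin form instead a cornified envelope, from proteins whose genes lie side by side in the epidermal differentiation complex.

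Values below are RPKM per library, always in the order of library 1 and library 2. Fold changes are differences of group means of log2(RPKM + 1), double null minus Ezh2 null, with the standard error (SE) and the two-sided p-value of limma's moderated linear model, adjusted by the Benjamini-Hochberg method over all 11338 genes. The added 1 makes the fold change of low genes smaller than that of their RPKM. A gene was called at an adjusted p under 0.05, and "rose" and "fell" are used of called genes only. The fit did not pair libraries by number, although deviations of same-numbered Ezh2 null and double null libraries correlated at 0.933. With library number as a block and only these 2 groups, 4558 genes were called. A gene that did not pass here is therefore not shown to be unchanged. Leaving out 1 library also leaves the library numbers unbalanced between the groups. Unless a value says otherwise, a gene named as having risen or fallen kept its call wherever it was tested under the other scalings, filters, pseudocount and variance models tried and without each of the 8 libraries in turn. Reads recovered from the RPKM values totalled 55592506 and 47554228 for Ezh2 null, 49682613 and 50776942 for double null, and from 30308844 to 35686706 in control and Setd2 null.

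The targeted genes were examined first. Setd2 (Entrez 235626, plus strand of chr9:110529296-110618633 in mm10) stood at 17 and 16.1 RPKM in control and 8.75 and 10.3 RPKM in Setd2 null, and at 14.6 and 11.6 RPKM (Ezh2 null) against 8.99 and 7.54 RPKM (double null), and the double null libraries were both below the Ezh2 null ones. Its fall was called with all libraries (log2 fold change −0.6 ± 0.15 SE, adjusted p = 0.0425) but not without Ezh2 null 1 (adjusted p = 0.282), double null 1 (0.0637), double null 2 (0.28), either control library (0.0858 and 0.086) or either Setd2 null library (0.0509 and 0.0512). It was not called either with median-ratio scaling (0.0506), with no filter (0.0766) or with a constant prior variance (0.0603). The table gives 1 value per gene, so transcripts that lack a deleted exon still add to it. Ezh2 (Entrez 14056, minus strand of chr6:47530274-47595340), deleted in both groups, had 13.8 and 11.6 RPKM (Ezh2 null) against 16.6 and 14.2 RPKM (double null), and the difference did not pass (log2 fold change 0.26 ± 0.14 SE, adjusted p = 0.454). With Ezh2 intact it stood at 19.4 and 20.9 RPKM in control and 24.2 and 20.7 RPKM in Setd2 null. The markers of prostate epithelium were present: the luminal keratin gene Krt8 lay between 688 and 905 RPKM over the 4 libraries, and the basal Krt5 between 1107 and 2084. Defining markers of several other cell types were low. The pan-leukocyte gene Ptprc lay between 0.0067 and 0.0582 RPKM, the endothelial gene Cdh5 between 0 and 0.015, the smooth muscle gene Acta2 between 0.0556 and 0.223, and the neuroendocrine gene Chga between 0.011 and 0.0738. Other markers on these lists were higher, such as the immune gene Cd14 at 77.3 and 87.3 RPKM (Ezh2 null) against 28.5 and 33 RPKM (double null), and 3 immune and 2 stromal members were called.

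In the double null libraries 430 genes rose and 306 fell, which is 6.49% of those tested (3.79% higher and 2.7% lower). At least 2-fold changes were found for 158 higher genes (1.39%) and 83 lower genes (0.732%), and at least 4-fold changes for 29 and 12. The median over all tested genes was −0.02, and 1779 genes had an unadjusted p under 0.05. In every one of the 736 called genes the double null libraries lay on one side of the Ezh2 null libraries, as they did in 19.5% (higher) and 22.8% (lower) of all genes tested. Each comparison library carried part of the count: 412 genes were called without Ezh2 null 1, 472 without Ezh2 null 2, 438 without double null 1 and 361 without double null 2. Called genes had shorter transcripts than all tested genes, with a median gene length of 2657.5 bases (higher) and 2848.5 bases (lower) against 3401 bases. The first principal component of the 8 libraries followed the Ezh2 genotype and held 81.2% of the variance. The second, with 6.9%, separated library 1 from library 2 within both groups, with Ezh2 null at −21 and 20.6 and double null at −19.6 and 21.3. The third, with 6.2%, put Ezh2 null at 18.1 and 18 and double null at −19.2 and −19.2.

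**Figure D1:**
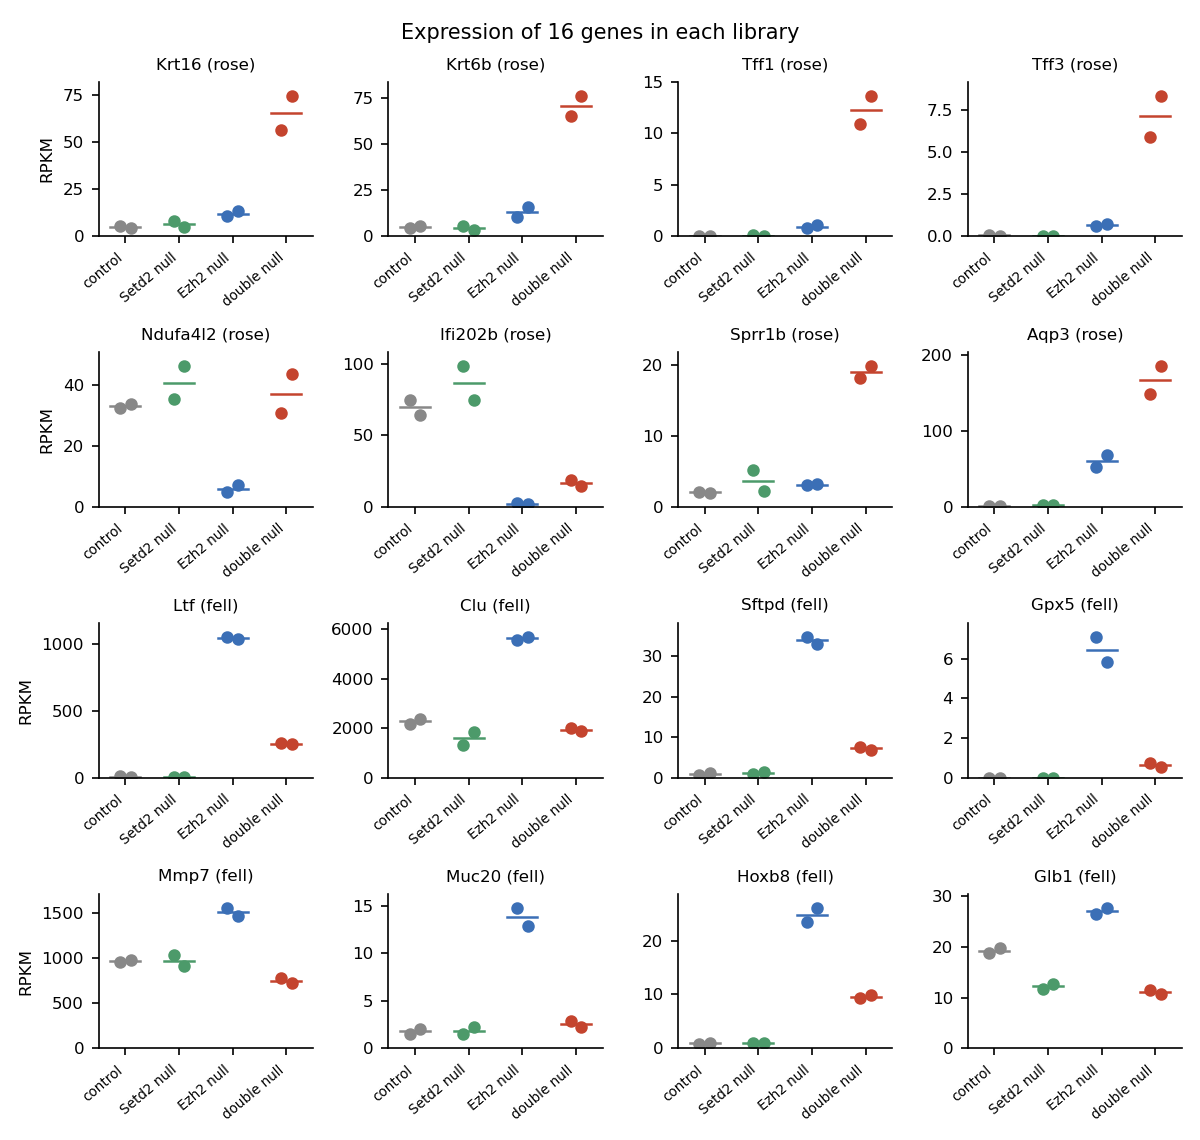
RPKM (vertical axes, linear, from 0) of 16 genes, with a point for each of the 2 libraries and a line for the mean of each of the 4 groups. In each panel the double null points lie apart from the Ezh2 null points, as for Krt16 at 56.3 and 74.6 against 10.7 and 13.2 RPKM, and Ltf at 255 and 252 against 1053 and 1042 RPKM.

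Squamous differentiation had the most called members among the 50 gene lists examined. Of 29 tested members of the list of cornified envelope and squamous differentiation genes, 22 were called higher and 1 lower, with a median log2 fold change of 0.91 against −0.02 over all genes. The higher count was 13 without Ezh2 null 1, 13 without double null 1 and 11 without double null 2. A total of 28 of the 29 had a fold change above 0. Of 20 tested keratin genes, which encode the intermediate filaments of epithelial cells, 10 were called higher and none lower (median 0.81). In bulk RNA a larger share of cells of 1 type and more RNA per cell cannot be told apart, and this holds for each group of genes described here.

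Krt16 and Krt6b, keratins of proliferating and wounded stratified epithelium, led the keratins. Krt16 was at 10.7 and 13.2 RPKM (Ezh2 null) against 56.3 and 74.6 RPKM (double null) (log2 fold change 2.36 ± 0.21 SE, adjusted p = 0.000163), and the lowest double null library was over the highest Ezh2 null library. Krt6b stood at 10.6 and 15.8 RPKM (Ezh2 null) against 65.1 and 76.3 RPKM (double null) (log2 fold change 2.36 ± 0.23 SE, adjusted p = 0.000314). Krt6a, the neighbour of Krt6b, rose from 358 and 437 RPKM to 895 and 1012 RPKM (log2 fold change 1.27). Krt1 and Krt10, which pair in the suprabasal layers of skin, both rose: Krt1 from 2.37 and 2.97 RPKM to 9.24 and 9.95 RPKM (log2 fold change 1.53) and Krt10 from 25.3 and 36.7 RPKM to 84.1 and 112 RPKM (log2 fold change 1.64). Krt23 was at 11.7 and 13.4 RPKM (Ezh2 null) against 41.2 and 42.5 RPKM (double null) (log2 fold change 1.66), a similar level within each pair. Krt20, a keratin of the uppermost urothelial cells, rose from a low level, from 2.3 and 2.5 RPKM to 6.2 and 7.53 RPKM (log2 fold change 1.2). Krt13, of non-cornified stratified epithelium, was at 116 and 162 RPKM (Ezh2 null) against 392 and 472 RPKM (double null) (log2 fold change 1.64, adjusted p = 0.00437), a call that was lost without double null 2 (adjusted p = 0.0534). Krt10 was named after its values were seen, while the others followed the rule for named genes.

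The genes of the epidermal differentiation complex moved together along the chromosome. In the span chr3:92012477-93449077 (mm10) 15 of 17 tested genes were called higher, with a median log2 fold change of 1.55. They were Pglyrp3, Prr9, Sprr2a1, Sprr2a2, Sprr2d, Sprr2e, Sprr2f, Sprr2h, Sprr1b, Sprr1a, Ivl, Crct1, Crnn, Rptn and Tchh, and Lor and Sprr2a3 did not pass. Without Ezh2 null 1 the count was 9, without Ezh2 null 2 it was 9 and without double null 2 it was 8. The genes of this and the other chromosomal runs were found by position among the called genes, after their values were seen.

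The promoters of 6 of these genes are shown because the run moved as 1 block. The RefSeq table of GRCm38.p6 has a promoter (250 bases before to 50 after the start) for 13 of the 15. Capitals mark 2 motifs, searched on both strands: the TATA box TATAAA and TGANTCA, where N is any base. TGANTCA is a looser form of the site known for AP-1 factors and reads the same on both strands. The base N was A in Sprr1b and Crnn and T in Rptn. Binding was not tested. Each line runs 5′ to 3′ on the gene's own strand.
Sprr2d: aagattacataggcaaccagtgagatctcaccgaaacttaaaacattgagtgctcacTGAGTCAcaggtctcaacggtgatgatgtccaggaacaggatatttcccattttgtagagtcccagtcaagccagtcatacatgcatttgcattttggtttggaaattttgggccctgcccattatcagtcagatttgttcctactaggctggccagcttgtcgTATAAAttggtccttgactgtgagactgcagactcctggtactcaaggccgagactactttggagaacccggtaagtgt
Sprr1b: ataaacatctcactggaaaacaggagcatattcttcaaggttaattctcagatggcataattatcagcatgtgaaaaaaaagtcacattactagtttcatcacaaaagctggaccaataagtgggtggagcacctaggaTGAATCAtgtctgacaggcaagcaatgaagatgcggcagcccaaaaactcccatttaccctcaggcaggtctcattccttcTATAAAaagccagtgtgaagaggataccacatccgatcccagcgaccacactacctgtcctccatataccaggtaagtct
Ivl: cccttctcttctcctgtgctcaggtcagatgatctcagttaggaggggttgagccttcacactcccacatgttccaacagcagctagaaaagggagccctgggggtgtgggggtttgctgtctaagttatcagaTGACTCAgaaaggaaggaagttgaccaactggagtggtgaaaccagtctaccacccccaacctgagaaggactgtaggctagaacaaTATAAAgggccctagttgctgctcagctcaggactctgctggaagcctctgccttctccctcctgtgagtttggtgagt
Crnn: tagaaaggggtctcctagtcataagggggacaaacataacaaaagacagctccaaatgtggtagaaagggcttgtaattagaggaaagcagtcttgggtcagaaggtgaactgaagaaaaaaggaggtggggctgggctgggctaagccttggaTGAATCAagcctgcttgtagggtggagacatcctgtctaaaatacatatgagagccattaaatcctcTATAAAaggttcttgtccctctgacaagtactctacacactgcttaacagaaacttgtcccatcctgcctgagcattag
Rptn: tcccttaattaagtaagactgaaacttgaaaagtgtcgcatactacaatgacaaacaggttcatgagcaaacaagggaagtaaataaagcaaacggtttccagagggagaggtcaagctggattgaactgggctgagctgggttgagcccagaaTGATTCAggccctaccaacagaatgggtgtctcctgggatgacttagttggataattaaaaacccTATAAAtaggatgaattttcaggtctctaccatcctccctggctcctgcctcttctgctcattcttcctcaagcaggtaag
Prr9: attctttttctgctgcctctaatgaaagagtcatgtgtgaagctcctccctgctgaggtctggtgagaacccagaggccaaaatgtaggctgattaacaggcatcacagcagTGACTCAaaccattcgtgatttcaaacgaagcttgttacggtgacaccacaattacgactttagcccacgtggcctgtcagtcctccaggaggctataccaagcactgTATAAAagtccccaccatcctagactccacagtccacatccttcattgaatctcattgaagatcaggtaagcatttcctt
They lie at chr3:92338890-92339189 (plus strand), chr3:92438730-92439029 (minus), chr3:92573686-92573985 (minus), chr3:93144539-93144838 (plus), chr3:93393449-93393748 (plus) and chr3:92123898-92124197 (minus). Of the 13 promoters, 10 held both motifs, and the rest (Sprr2a1, Sprr2a2 and Tchh) held neither. The 6 shown are all among those with both. Of all 27025 promoters listed, 14.2% held TATAAA, 7.93% held TGANTCA and 1.67% held both. These shares are not limited to tested genes, and the promoters of Lor and Sprr2a3, which did not pass, were not searched. A link between the motifs and the rise was not tested. The TATA box began 29 bases before the start in Sprr2d, Ivl and Crnn, 30 in Sprr1b and Prr9 and 31 in Rptn. TGANTCA began 193 bases before the start in Sprr2d, 111 in Sprr1b, 116 in Ivl, 96 in Crnn, 96 in Rptn and 138 in Prr9. The Sprr2 genes are close copies of one another, so their promoters are not independent cases and reads may have been split between them.

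Within the complex, Sprr2d, a small proline-rich protein that is cross-linked into the envelope, was at 0.924 and 1.76 RPKM (Ezh2 null) against 31.1 and 34.7 RPKM (double null) (log2 fold change 3.88 ± 0.39 SE, adjusted p = 0.0018). Its call was lost without double null 2 (adjusted p = 0.0532). Sprr1b was at 3.04 and 3.19 RPKM (Ezh2 null) against 18.2 and 19.8 RPKM (double null) (log2 fold change 2.28 ± 0.24 SE, adjusted p = 0.00049), with both double null libraries far over both Ezh2 null libraries. Ivl (involucrin, an early envelope protein) rose from 22.8 and 22.6 RPKM to 52.6 and 46.2 RPKM (log2 fold change 1.08). Crnn (cornulin, of oesophageal epithelium) rose from 27.4 and 28.6 RPKM to 113 and 112 RPKM (log2 fold change 1.97) and Rptn (repetin) from 0.881 and 0.781 RPKM to 4.55 and 4.14 RPKM (log2 fold change 1.55). Crct1 went from 0.452 and 0.499 RPKM to 6.12 and 6.51 RPKM (log2 fold change 2.31). In none of these genes did the groups overlap. Outside the complex, Tgm1, the transglutaminase that cross-links the envelope, rose from 4.77 and 6.37 RPKM to 13.2 and 18.2 RPKM (log2 fold change 1.34). Cnfn (cornifelin) rose from 0.224 and 0.349 RPKM to 3.34 and 4.2 RPKM (log2 fold change 1.89) and Calml3, a calmodulin-like protein of stratified epithelium, from 20.3 and 18.2 RPKM to 36.7 and 37.2 RPKM (log2 fold change 0.91). Klk8, a kallikrein-related protease active in skin shedding, was at 0.393 and 0.555 RPKM (Ezh2 null) against 3.35 and 3.42 RPKM (double null) (log2 fold change 1.57). Ivl, Crnn, Tgm1 and Calml3 were chosen after their values were seen.

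**Figure D2:**
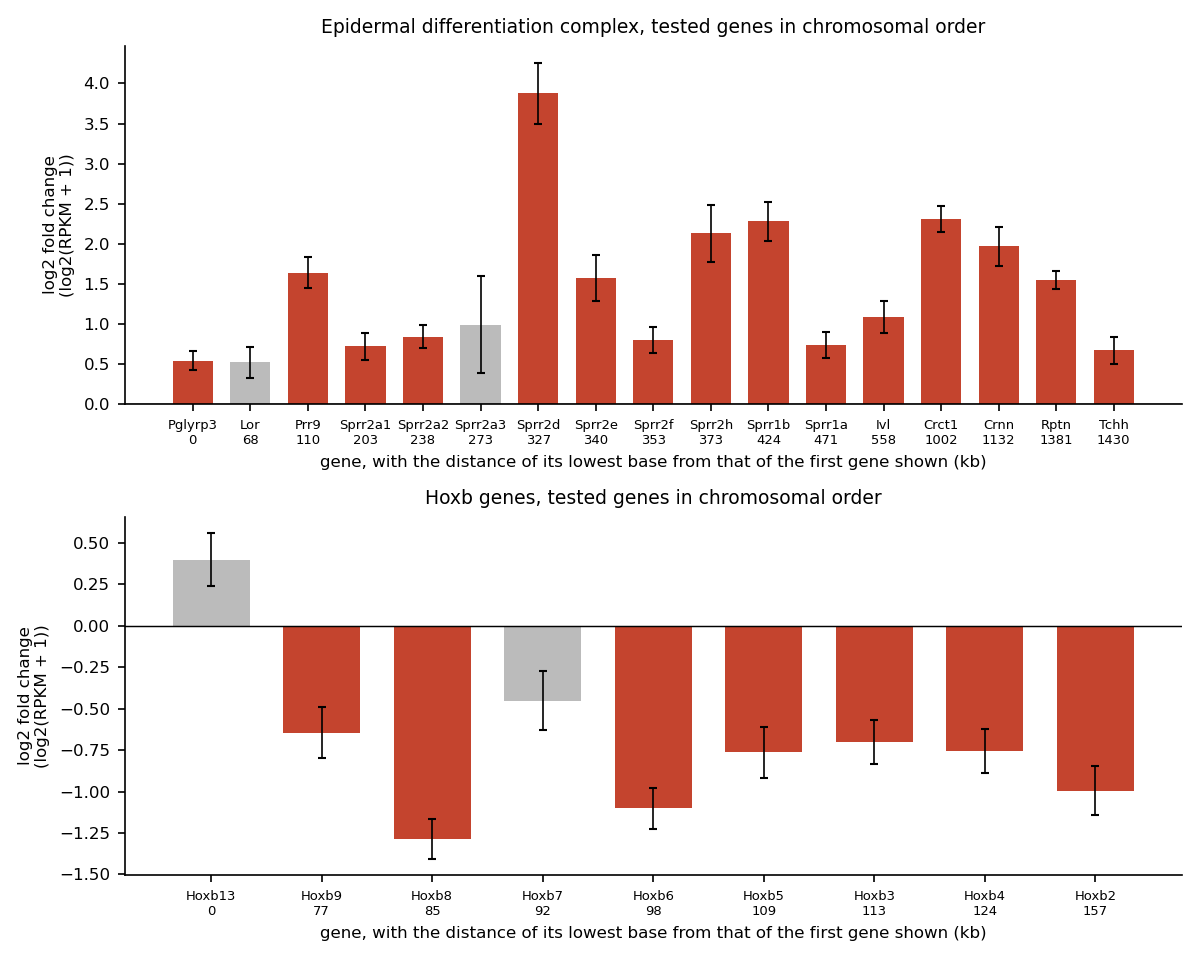
Log2 fold change (double null minus Ezh2 null, log2(RPKM + 1)) of the 17 tested genes of the epidermal differentiation complex on chromosome 3 (upper panel) and of the 9 tested Hoxb genes (lower panel), in chromosomal order with distances in kb. Bars start at 0, error bars are 1 SE and red bars were called: 15 of 17 in the upper panel point up, and 7 of 9 in the lower panel point down.

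Other runs of neighbours held genes of squamous epithelium, and those given here are the ones in which every tested gene was called. Both ends of a run are called genes by construction. Other runs held more uncalled genes. On chromosome 11 from 69655037, 6 of 39 tested genes were called higher and 1 lower. On chromosome 17 from 35059035, 4 of 25 were called higher. On chromosome 15, all 5 tested genes between 101624028 and 101850786 were called higher (Gm5414, Krt6b, Krt6a, Krt5 and Krt1, median log2 fold change 1.27). On chromosome 18 all 4 tested genes between 19960930 and 20541310 were called higher, the desmosomal cadherins Dsc3, Dsc2, Dsg4 and Dsg3 (median 0.96). On chromosome 5 all 4 tested genes between 86302854 and 86745807 were called higher, the membrane serine proteases Tmprss11d, Tmprss11g, Tmprss11b and Tmprss11e of airway and oral epithelium (median 1.86). Tmprss11g was at 1.83 and 1.72 RPKM (Ezh2 null) against 10.5 and 9.89 RPKM (double null) (log2 fold change 2.01 ± 0.13 SE, adjusted p = 3.63e-05). Of the desmosomal cadherins, Dsg3 rose from 21.7 and 20.4 RPKM to 43.9 and 42.1 RPKM (log2 fold change 1.0) and Dsc3 from 7.5 and 7.29 RPKM to 15.9 and 13.9 RPKM (log2 fold change 0.92). In the wider list of epithelial junctions and desmosomes 6 of 30 tested genes were called higher and 1 lower (median 0.15). That higher count was 2 without either control library, Ezh2 null 1 or double null 2, and 3 without Ezh2 null 2 or double null 1 or with no filter.

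Basal markers were called in 1 direction only and luminal markers in both. Of 20 tested basal genes 7 were called higher and none lower (median 0.39), with 2 called without Ezh2 null 1, 4 without double null 1 and 2 without double null 2. Gene lists can share members, as Krt5 is both a basal marker and a keratin, so their counts are not independent. Aqp3, the water and glycerol channel of basal cells, rose from 52 and 68.3 RPKM to 149 and 185 RPKM (log2 fold change 1.46 ± 0.17 SE, adjusted p = 0.000705). Krt5 was at 1107 and 1358 RPKM (Ezh2 null) against 1812 and 2084 RPKM (double null) (log2 fold change 0.66 ± 0.17 SE, adjusted p = 0.0471), a call lost without any library of Ezh2 null (adjusted p = 0.321 and 0.0632), double null (0.0971 and 0.297) or control (0.112 and 0.112), with no filter (0.0708) and with a pseudocount of 0.1 (0.0508). Trp63, which encodes p63, had 18.3 and 17.6 RPKM (Ezh2 null) against 27.9 and 26.8 RPKM (double null) (log2 fold change 0.58, adjusted p = 0.0135), and its call was lost without Ezh2 null 1 (0.0609), Ezh2 null 2 (0.0877), double null 1 (0.0974) or double null 2 (0.0755). Klf4, a transcription factor of differentiating epithelium and no member of the basal list, rose from 23.8 and 29.5 RPKM to 54.2 and 64.9 RPKM (log2 fold change 1.13).

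Of 26 tested luminal genes 5 were called higher and 2 lower (median −0.05). The higher count was 3 without Ezh2 null 1 or double null 2, and 1 without Ezh2 null 2 or double null 1 or with a pseudocount of 0.1. Spink1, a secreted trypsin inhibitor, rose from 0.426 and 0.797 RPKM to 5.96 and 7.75 RPKM (log2 fold change 2.29 ± 0.15 SE, adjusted p = 4.17e-05). Pigr, which carries immunoglobulin A across the epithelium, was lower, at 196 and 212 RPKM (Ezh2 null) against 64.4 and 64.3 RPKM (double null) (log2 fold change −1.65, adjusted p = 0.00388, lost without Ezh2 null 2 with 0.0561). The luminal keratins Krt8 and Krt18, named after their values were seen, did not pass: Krt8 stood at 819 and 905 RPKM (Ezh2 null) against 688 and 718 RPKM (double null) and Krt18 at 536 and 583 RPKM (Ezh2 null) against 514 and 526 RPKM (double null).

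**Figure D3:**
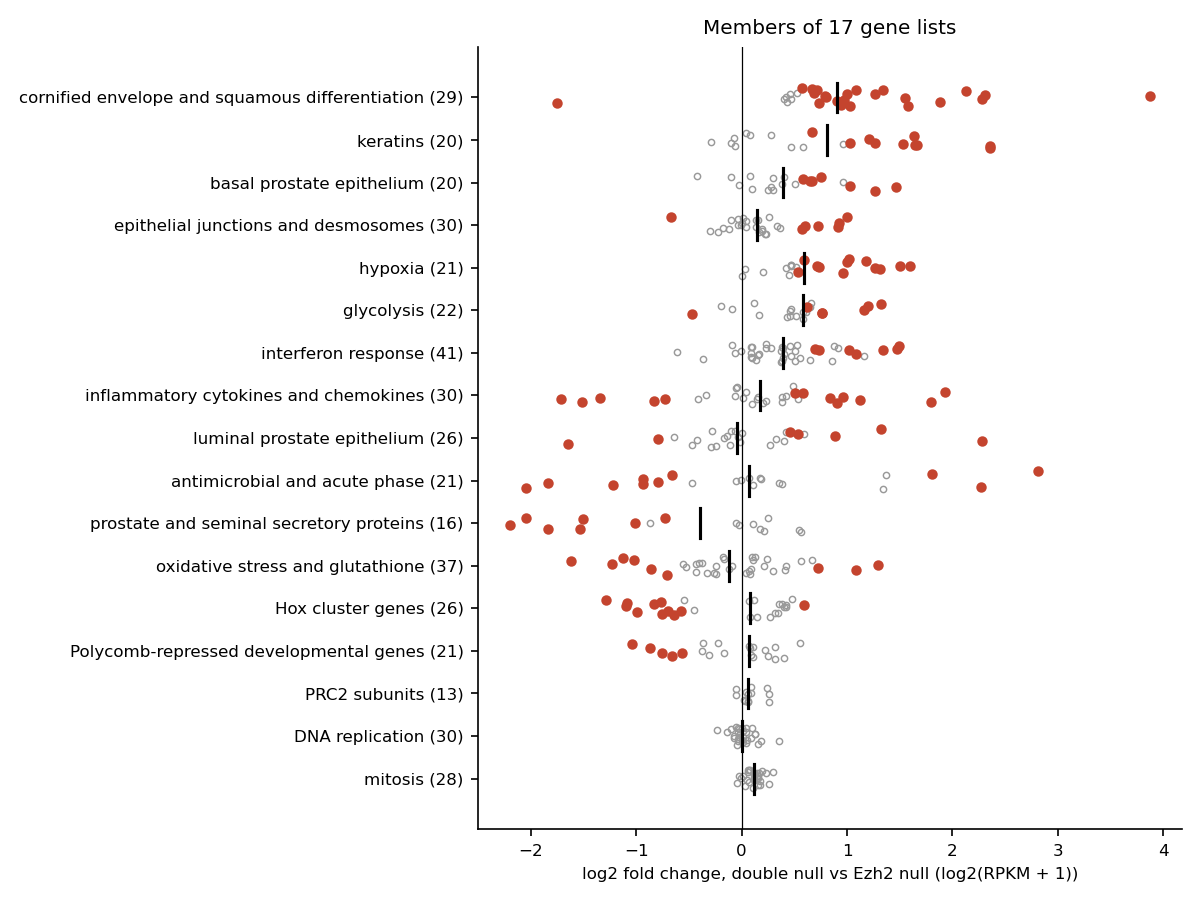
Log2 fold change (double null minus Ezh2 null, log2(RPKM + 1), horizontal axis) of each tested member of 17 gene lists, with the number tested in parentheses. Filled red points were called, open grey points were not, and the black line is the median, which is 0.91 for squamous differentiation, 0.59 for hypoxia and −0.39 for secretory proteins.

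The trefoil factors and several other genes that were at or under 1.03 RPKM in each library with Ezh2 intact rose as well. Tff1, a secreted mucosal repair peptide, was at 0 and 0 RPKM in control and 0.0621 and 0 RPKM in Setd2 null, at 0.737 and 1.03 RPKM (Ezh2 null) against 10.9 and 13.7 RPKM (double null) (log2 fold change 2.81 ± 0.14 SE, adjusted p = 7.56e-06). Tff3, of the same family, rose from 0.589 and 0.735 RPKM to 5.89 and 8.34 RPKM (log2 fold change 2.27). Sult5a1, a sulfotransferase, rose from 0.573 and 0.263 RPKM to 20.7 and 19.2 RPKM (log2 fold change 3.89), and its double null libraries stood far over the 6 others. Sbpl, related to spermine-binding protein of prostatic secretion, was listed at 0 in control and Setd2 null and went from 0.164 and 0.048 RPKM to 10.2 and 11 RPKM (log2 fold change 3.39). Mt4, the metallothionein of stratified epithelium, rose from 1.89 and 2.1 RPKM to 14.8 and 14.9 RPKM (log2 fold change 2.41), and Pglyrp4, a bacterial peptidoglycan binder, from 0.362 and 0.49 RPKM to 4.74 and 5.78 RPKM (log2 fold change 2.13).

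Several secretory genes fell. Of 16 tested members of the list of prostate and seminal secretory proteins 7 fell and none was called higher, with a median of −0.39 (−0.45 after quantile normalization). The count was 6 to 8 without any 1 library. Clu (clusterin, an extracellular chaperone), the most abundant of them, was at 5563 and 5679 RPKM (Ezh2 null) against 1982 and 1888 RPKM (double null) (log2 fold change −1.54 ± 0.18 SE, adjusted p = 0.000858). The double null libraries lay under the control libraries as well, which had 2147 and 2383 RPKM. Ltf (lactotransferrin, an iron-binding antimicrobial protein) was at 1053 and 1042 RPKM (Ezh2 null) against 255 and 252 RPKM (double null) (log2 fold change −2.04 ± 0.16 SE, adjusted p = 7.85e-05), so Ezh2 null and double null were both over the 3.73 to 7.64 RPKM of the libraries with Ezh2 intact. Lcn2, which binds bacterial siderophores, was at 3113 and 2985 RPKM (Ezh2 null) against 890.4 and 819 RPKM (double null) (log2 fold change −1.83, adjusted p = 0.00311), and did not pass after quantile normalization (adjusted p = 0.0541). Mmp7, the matrilysin of glandular epithelium, fell from 1558 and 1462 RPKM to 780.2 and 719.8 RPKM (log2 fold change −1.01). Wfdc18, a small protease inhibitor, fell from 53.3 and 46.9 RPKM to 10.3 and 9.99 RPKM (log2 fold change −2.2), and Svs4, a seminal vesicle protein, from 8.54 and 6 RPKM to 2.03 and 1.75 RPKM (log2 fold change −1.5). Of the members that did not pass, Crisp1 had 429 and 289.5 RPKM (Ezh2 null) against 622 and 436 RPKM (double null). Pate4 had 39.3 and 29.5 RPKM (Ezh2 null) against 49.4 and 33.4 RPKM (double null). Both were named after their values were seen, and the groups overlapped for Pate4. In both genes each double null library was over the Ezh2 null library of the same number.

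Other genes fell as well, several of them secreted proteins. Defb6, a beta-defensin, was at 219.6 and 150.5 RPKM (Ezh2 null) against 24.7 and 15.7 RPKM (double null) (log2 fold change −3.14 ± 0.22 SE, adjusted p = 5.25e-05), with every double null library under every Ezh2 null library. Sftpd (surfactant protein D, a collectin that binds microbes) fell from 34.8 and 33.1 RPKM to 7.65 and 6.76 RPKM (log2 fold change −2.09). Gpx5, the glutathione peroxidase known from the epididymis, fell from 7.11 and 5.83 RPKM to 0.723 and 0.542 RPKM (log2 fold change −2.19), and Csn3 (kappa-casein, a milk protein) from 6.29 and 4.66 RPKM to 0.481 and 0.342 RPKM (log2 fold change −2.19). Muc20, a membrane mucin, fell from 14.8 and 12.8 RPKM to 2.81 and 2.27 RPKM (log2 fold change −2.07). Glb1l3, a galactosidase-like gene, fell from 18 and 14.6 RPKM to 1.87 and 1.38 RPKM (log2 fold change −2.72), and the crystallin Cryba4 from 9.66 and 11.7 RPKM to 0.385 and 0.641 RPKM (log2 fold change −2.95). Gsdmc2 and Gsdmc3, gasdermins that can form membrane pores, were at 18.9 and 17.3 RPKM (Ezh2 null) against 5.28 and 4.13 RPKM (double null) and at 11.9 and 11.1 RPKM (Ezh2 null) against 2.26 and 2.01 RPKM (double null) (log2 fold changes −1.75 and −2.0). Rprm, a gene that can arrest the cell cycle downstream of p53, fell from 9.61 and 10.2 RPKM to 2.26 and 2.52 RPKM (log2 fold change −1.69).

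Of 21 tested antimicrobial and acute phase genes 3 were called higher and 7 lower (median 0.07). Those called higher were Tff1, Tff3 and S100a9, and those called lower were Ltf, Lcn2, Lyz2, Saa3, Hp, Cfb and Lbp. Of 37 tested genes of oxidative stress and glutathione 3 were called higher and 6 lower (median −0.12), and without either Setd2 null library 5 were called higher. Gstt1, a glutathione transferase, fell from 58.6 and 61.2 RPKM to 18.6 and 19.1 RPKM (log2 fold change −1.62 ± 0.18 SE, adjusted p = 0.000713), and Ggt1, which breaks down extracellular glutathione, from 6.09 and 5.94 RPKM to 1.68 and 2.35 RPKM (log2 fold change −1.23). Aldh1a3, which makes retinoic acid, rose from 13.7 and 15.7 RPKM to 35.8 and 38.8 RPKM (log2 fold change 1.29). Gsto1, one of the most abundant genes, had 1357 and 1552 RPKM (Ezh2 null) against 2267 and 2551 RPKM (double null) (log2 fold change 0.73, adjusted p = 0.0155), and was not called without Ezh2 null 1 (0.14) or double null 2 (0.145).

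Most tested genes of the hypoxia response rose. Of 21 tested members 12 were called higher and none lower, with a median of 0.59, and all 21 had a fold change above 0. Between 8 and 12 were called when 1 library was left out. Ndrg1, a stress-responsive differentiation gene, was at 47 and 42.7 RPKM (Ezh2 null) against 137 and 138 RPKM (double null) (log2 fold change 1.6 ± 0.13 SE, adjusted p = 9.98e-05). Adm, the vasodilator peptide adrenomedullin, rose from 6.53 and 7.37 RPKM to 23 and 20.1 RPKM (log2 fold change 1.5), and Vegfa, the main angiogenic growth factor, from 20.2 and 22.1 RPKM to 45.1 and 53.3 RPKM (log2 fold change 1.18). Car12, a membrane carbonic anhydrase, rose from 4.9 and 4.65 RPKM to 12.8 and 12.9 RPKM (log2 fold change 1.26). Outside the list, Ndufa4l2, a mitochondrial protein known as a target of hypoxia-inducible factors, rose from 4.84 and 7.08 RPKM to 30.9 and 43.8 RPKM (log2 fold change 2.46 ± 0.21 SE, adjusted p = 0.000124) and its double null libraries lay to either side of its control libraries (32.6 and 33.8 RPKM). Egln3, an oxygen sensor, rose from 128 and 138 RPKM to 251 and 283 RPKM (log2 fold change 1.0, named after its values were seen). The sources used here do not give the oxygen supply of the cultures.

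Some glycolytic genes rose as well. Of 22 tested members 6 were called higher and 1 lower (median 0.58), with 3 called higher without double null 1 and 10 with voom on the recovered reads. Pfkp, a phosphofructokinase, rose from 6.12 and 5.95 RPKM to 14.1 and 15.4 RPKM (log2 fold change 1.16 ± 0.11 SE, adjusted p = 0.000288). Aldoc, an aldolase, rose from 12.2 and 13.1 RPKM to 27.1 and 34.1 RPKM (log2 fold change 1.2), and Slc16a3, the lactate exporter, from 11.9 and 15.3 RPKM to 30.2 and 41 RPKM (log2 fold change 1.32). By comparison, 1 of 42 tested genes of oxidative phosphorylation was called, Ndufa9, a complex I subunit, which fell from 107 and 108 RPKM to 57.8 and 58.6 RPKM (log2 fold change −0.87). Of the 42, 33 had a fold change below 0, with a median of −0.05. Of 31 tested genes of sterol and fatty acid synthesis 2 were called higher (median 0.34), but 1 without either control library or any 1 of the 4 libraries compared, and 26 had a fold change above 0.

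Some interferon-stimulated genes rose. Of 41 tested members 7 were called higher and none lower, 36 had a fold change above 0, and the median was 0.40. The count was 14 without Setd2 null 1, 13 without Setd2 null 2, 4 without Ezh2 null 1 or double null 2, and 11 with a pseudocount of 0.1. Oasl1, a regulator of antiviral translation, was at 3.07 and 3.12 RPKM (Ezh2 null) against 9.54 and 11.2 RPKM (double null) (log2 fold change 1.47 ± 0.14 SE, adjusted p = 0.000239). Rsad2 (viperin, an antiviral enzyme) rose from 0.989 and 0.789 RPKM to 4.7 and 3.96 RPKM (log2 fold change 1.5), Ifit1 from 1.53 and 1.02 RPKM to 5.2 and 4.29 RPKM (log2 fold change 1.34) and Usp18, which removes ISG15 from proteins, from 5 and 5.13 RPKM to 11.9 and 11.8 RPKM (log2 fold change 1.08). Ifi202b, an interferon-activated DNA-binding protein outside the list, rose from 2.7 and 1.79 RPKM to 18.4 and 14.5 RPKM (log2 fold change 2.43). In double null, Rsad2, Ifit1, Usp18 and Ifi202b stayed under both of their control libraries, which had 50.1 and 47.3 RPKM for Usp18 and 74.8 and 64.4 RPKM for Ifi202b. Oasl1 overlapped its control values of 10.8 and 11.6 RPKM.

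In MHC class I presentation, none of 19 tested was called higher and 1 was called lower, and 17 had a fold change below 0 (median −0.19, and −0.30 after quantile normalization). Under the alternative with the most calls, 13 were called lower. B2m, the light chain of MHC class I, was at 682 and 609 RPKM (Ezh2 null) against 415 and 368 RPKM (double null) (log2 fold change −0.72, adjusted p = 0.0368). Its call was lost without Ezh2 null 1 (0.209), Ezh2 null 2 (0.0857), double null 1 (0.0886), double null 2 (0.235) or either control library (0.0824 and 0.0822), and with no filter (0.0645).

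Of 30 tested inflammatory cytokines and chemokines 8 were called higher and 5 lower. The higher count was 4 without Ezh2 null 2 or double null 1, and the lower count was 3 without any 1 of the 4 libraries compared. Il1a (interleukin 1 alpha, an alarmin of stratified epithelium) rose from 1.32 and 1.58 RPKM to 7.54 and 7.43 RPKM (log2 fold change 1.79 ± 0.13 SE, adjusted p = 6.43e-05). Cxcl3, a neutrophil attractant named after its values were seen, rose from 2 and 1.78 RPKM to 4.69 and 4.58 RPKM (log2 fold change 0.97). In the other direction, Cxcl15 fell from 60.9 and 48.2 RPKM to 17 and 14.7 RPKM (log2 fold change −1.71), the chemokine Ccl9 from 2.89 and 2.66 RPKM to 0.475 and 0.183 RPKM (log2 fold change −1.52), and Ccl28, a chemokine of mucosal epithelium, from 7.74 and 6.09 RPKM to 2.44 and 1.79 RPKM (log2 fold change −1.34). S100a9, a calcium-binding alarmin subunit, rose from 1.92 and 1.16 RPKM to 9.45 and 6.43 RPKM (log2 fold change 1.81).

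Most called Hox genes fell and lay in the Hoxb cluster, though a difference between clusters was not tested. Hox genes are the developmental factors that Polycomb silences in ordered clusters, and 26 of 39 were tested, with 10 called lower (6 without double null 1) and 1 higher. In the Hoxb cluster 7 of 9 tested genes were called lower (Hoxb2, Hoxb3, Hoxb4, Hoxb5, Hoxb6, Hoxb8 and Hoxb9, within chr11:96271330-96354020), and 4 were called without double null 1. Hoxb13, a prostate factor at the far end of that cluster, named after its values were seen, was at 68.7 and 88.4 RPKM (Ezh2 null) against 95.1 and 112 RPKM (double null) and did not pass (log2 fold change 0.4). All 9 tested Hoxa genes had a fold change above 0. Of these only Hoxa9, named after its values were seen, was called, and the call was lost in 10 of 18 alternatives, among them without Ezh2 null 1 (adjusted p = 0.296) or double null 2 (0.286). Of 8 tested Hoxd genes 3 were called lower (Hoxd3, Hoxd4 and Hoxd8), 4 fold changes were above 0 and 4 below. The median over all 26 was 0.07, on the other side of 0 from most of the calls. No Hoxc gene passed the filter.

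Hoxb8 was at 23.4 and 26.1 RPKM (Ezh2 null) against 9.29 and 9.86 RPKM (double null) (log2 fold change −1.28 ± 0.12 SE, adjusted p = 0.000251), and both groups stood over the 0.85 to 0.986 RPKM of the libraries with Ezh2 intact. Hoxb6 fell from 43.7 and 47.6 RPKM to 19.4 and 22.2 RPKM (log2 fold change −1.1), beside 7.03 to 8.1 RPKM in the libraries with Ezh2 intact. Hoxd4 fell from 14.8 and 16 RPKM to 6.16 and 7.31 RPKM (log2 fold change −1.09) and Hoxd3 from 5.49 and 6.28 RPKM to 2.86 and 2.85 RPKM (log2 fold change −0.83). Among 21 tested Polycomb-repressed developmental genes outside the Hox clusters 5 were called lower and none higher (median 0.07), but the count fell to 3 without either control library, 2 without either Setd2 null library or double null 2, and 1 without Ezh2 null 2 or double null 1. It was 2 with either other scaling, 1 with no filter or a pseudocount of 0.1, and 3 with voom or a constant prior variance. Tbx2, a T-box factor and 1 of the 5, had 64.1 and 97.4 RPKM (Ezh2 null) against 33.5 and 42.8 RPKM (double null) (log2 fold change −1.04, adjusted p = 0.0144, 0.0636 without Ezh2 null 2, 0.0744 without double null 1 and 0.052 with no filter). Of all called genes, 81 of the 306 lower and 76 of the 430 higher had a mean under 1 RPKM in control and Setd2 null, as did 534 of the 11338 tested. Such genes passed the filter only through the groups without Ezh2.

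Few chromatin and proliferation genes were called. None of 13 tested PRC2 subunits (median 0.06), 19 PRC1 subunits (median −0.05), 30 genes of DNA replication (median 0) or 28 of mitosis (median 0.12) was called in limma, nor in limma with voom on the recovered reads. At an unadjusted p under 0.05 there were 0, 2, 1 and 0 of them. A fold change above 0 was found in 11, 7, 16 and 25 of them, in the same order. Suz12, the PRC2 scaffold, was at 21.6 and 17.6 RPKM (Ezh2 null) against 24.1 and 18 RPKM (double null), and the histone H2A ubiquitin complex gene Bmi1 at 11.8 and 9.04 RPKM (Ezh2 null) against 7.88 and 6.63 RPKM (double null) (log2 fold change −0.46, adjusted p = 0.18). Cdkn2a, a Polycomb-silenced inhibitor of the cell cycle, was at 46.9 and 81.4 RPKM (Ezh2 null) against 39.7 and 65.9 RPKM (double null) and did not pass (log2 fold change −0.27, adjusted p = 0.83). The growth factors and their targets moved singly: Tgfb3, a TGF-beta ligand, fell from 9.01 and 9.56 RPKM to 2.43 and 2.45 RPKM (log2 fold change −1.58), and Id1, a target of BMP signalling, rose from 48.7 and 53.2 RPKM to 90.1 and 112 RPKM (log2 fold change 0.97).

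Mesenchymal and matrix genes moved both ways. Of 13 tested genes of the mesenchymal transition 4 were called lower and 1 higher, with 2 lower without Ezh2 null 1, Ezh2 null 2 or double null 2 and 1 without double null 1. Vim (vimentin, the mesenchymal intermediate filament) fell from 3.9 and 4.22 RPKM to 1.66 and 1.58 RPKM (log2 fold change −0.95 ± 0.12 SE, adjusted p = 0.00107), while its control libraries had 83.3 and 74.7 RPKM. Ctgf, a matricellular target of YAP, fell from 48.4 and 41 RPKM to 16.1 and 12.6 RPKM (log2 fold change −1.58), Thbs1 (thrombospondin 1) from 70.3 and 72.5 RPKM to 36.4 and 33.5 RPKM (log2 fold change −1.01), and Timp1, an inhibitor of metalloproteinases, from 18.7 and 23 RPKM to 7.83 and 7.68 RPKM (log2 fold change −1.31). Of 37 tested matrix genes and adhesion receptors 3 were called higher and 5 lower (median −0.13), with 1 and 2 called without Ezh2 null 1 or double null 2. Of 24 tested matrix metalloproteinases and inhibitors 2 were called higher and 3 lower (median −0.09). Adam8, a membrane protease, rose from 23.4 and 28.7 RPKM to 54.8 and 63.8 RPKM (log2 fold change 1.16).

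Some markers of other cell types moved with the groups. Of 16 immune genes 3 were tested: Lyz2 (lysozyme) fell from 7.69 and 8.2 RPKM to 2.67 and 3.02 RPKM (log2 fold change −1.22), Cd14 fell from 77.3 and 87.3 RPKM to 28.5 and 33 RPKM (log2 fold change −1.39) and Cd68 rose from 4.24 and 4.42 RPKM to 10.6 and 11.6 RPKM (log2 fold change 1.18). The macrophage gene Adgre1 went from 0.921 and 1.15 RPKM to 0.331 and 0.258 RPKM and was not tested, and 5 of the 16 immune genes were at 0 in all 4 libraries, Cd3g among them. The summed level of the 16 was 91.7 and 103 RPKM in Ezh2 null, against 42.8 and 48.9 RPKM in double null. Cd14 alone held most of that sum in each library, and its fall accounts for nearly all of the difference. The sum is therefore no measure of immune cells as a whole. Col3a1, a fibrillar collagen and stromal marker, fell from 5.83 and 7.44 RPKM to 2.88 and 3.08 RPKM (log2 fold change −0.93), 1 of 2 stromal genes called lower of 6 tested, while the summed stromal level was 38.2 and 37.4 against 39.6 and 35.8 RPKM. The part of such cells in the falls of antimicrobial, cytokine and matrix genes was not tested.

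Reads of near-identical genes gave values that are uncertain because the sources used here do not say how shared reads were divided. Rpl29 (ribosomal protein of the large subunit, chr9:106428783-106431568) was at 278 and 304 RPKM (Ezh2 null) against 16.1 and 16.6 RPKM (double null) (log2 fold change −4.07 ± 0.17 SE, adjusted p = 2.29e-06). Its copy Gm8210 (a predicted gene on chromosome 1, named after its values were seen) was at 0 and 0.0593 RPKM with Setd2 intact and at 47.8 and 57.9 RPKM without it. The sum of both fell from 278 and 304 RPKM to 63.8 and 74.5. The other 77 of 79 tested cytosolic ribosomal protein genes were not called (median 0.17, and 0.06 after quantile normalization), although 76 of the 79 had a fold change above 0. Rpl26 was the 1 called higher, from 220.0 and 225 RPKM to 605 and 552 RPKM. With library number as a block and only the groups compared, 74 of the 79 were called higher.

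Several lists held only scattered calls. Of 21 tested serpins and protease inhibitors 6 were called higher and 5 lower, among them Wfdc12, which rose from 0.323 and 0.406 RPKM to 4.28 and 4.59 RPKM (log2 fold change 1.99). Of 12 tested S100 proteins 3 were called higher, but 1 without Ezh2 null 1 or double null 2. Of 11 tested EGF family ligands and receptors all had a fold change above 0 and 2 were called, led by the ligand Epgn (epigen), which rose from 1.08 and 1.12 RPKM to 3.06 and 2.67 RPKM (log2 fold change 0.88). Of 18 tested p53 targets 16 had a fold change below 0 (median −0.27), with 2 called lower and 1 higher, and none called either way without any 1 of the 4 libraries compared or either control library. Calls numbered 3 higher and 1 lower of 29 in the androgen response (1 higher without any 1 of the 4 libraries compared), 3 and 1 of 35 in TGF-beta, activin and BMP, 3 and 2 of 23 in aquaporins and ion transport, and 2 and 1 of 15 in solute carriers. They numbered 2 lower of 31 in the Wnt pathway, 2 lower of 24 AMPK and FOXO genes, 1 lower of 29 in the PI3K-AKT pathway, 2 higher of 28 immediate early and heat shock genes, 2 higher of 29 in the unfolded protein response, 2 higher and 1 lower of 10 in urothelium, 1 each way of 9 Sox factors and 1 lower of 8 CDK inhibitors, beside 3.79% higher and 2.7% lower of all genes tested. Many of these small counts rested on single libraries. Other alternatives gave more, with up to 15 p53 targets called lower. The lower calls in the Wnt pathway and in aquaporins and ion transport went to 0 without either control library or any 1 of the 4 libraries compared, as did the lower call among the Sox factors. The higher Sox call was lost without either control library, Ezh2 null 1 or double null 2, and the CDK inhibitor without any 1 library other than Ezh2 null 1. No call was left among AMPK and FOXO genes without double null 1, in the PI3K-AKT pathway without double null 2, or in the unfolded protein response without Ezh2 null 1, Ezh2 null 2 or double null 2. The lower calls were lost in the androgen response without double null 1, in solute carriers without Ezh2 null 1 or double null 2, and in urothelium without Ezh2 null 2 or double null 1. Of the 2 immediate early and heat shock calls 1 was left without any 1 library other than Ezh2 null 2. None of 17 Notch genes, 6 replication-dependent histones or 10 imprinted genes was called in limma, with 2, 1 and 3 at an unadjusted p under 0.05 and 0, 0 and 1 called with voom.

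Near Setd2 itself, within 10 Mb on each side on chromosome 9, 158 genes were tested, of which 6 were called higher and 9 lower (9.49%, against 6.49% of all genes). The lower ones included Glb1, Ltf, Nme6, Nudt16, Parp3, Rpl29, Spink8 and Wdr6. Glb1, the lysosomal beta-galactosidase, was at 26.5 and 27.7 RPKM (Ezh2 null) against 11.5 and 10.7 RPKM (double null) (log2 fold change −1.21 ± 0.11 SE, adjusted p = 0.000247). Rpl29 lies 4.1 Mb from Setd2.

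The effect of Setd2 deletion with Ezh2 intact was measured between libraries on neither side of the comparison above, although all 4 groups gave 1 shared estimate of the spread. Setd2 null against control gave 43 genes called higher (0.379%) and 78 lower (0.688%), in all 1.07% of those tested, against the 6.49% of double null against Ezh2 null. Against 121 calls in all, dropping control 1 gave 25, dropping control 2 gave 24 and dropping Setd2 null 1 gave 64, while quantile normalization gave 56 (25 higher and 31 lower). In the same direction, 36 genes were called in both (17 higher and 19 lower), which is 4.89% of the calls in double null against Ezh2 null and 29.8% of those in Setd2 null against control, and 10 were called in opposite directions. Of the 430 genes higher in double null, 63.5% had a fold change above 0 in Setd2 null against control, as did 46.2% of all genes tested. Of the 306 lower genes, 70.3% were below 0 there, where most of all genes tested also lay below 0 (median −0.02). The shared count rests on single libraries: 6 were left without control 1, 8 without control 2, and 22 when Setd2 null 1 was dropped.

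Several named genes were called in both comparisons, but their calls in Setd2 null against control were not followed one by one through the alternatives. Tmprss11g was at 2.17 and 2.73 RPKM in control and 7.89 and 7.3 RPKM in Setd2 null (log2 fold change 1.32, adjusted p = 0.00168), beside a log2 fold change of 2.01 in the organoids without Ezh2. Oasl1 was at 10.8 and 11.6 RPKM in control and 24.7 and 30.3 RPKM in Setd2 null (log2 fold change 1.22, adjusted p = 0.00424). Upp1, uridine phosphorylase, was at 9.41 and 10.8 RPKM in control and 27.5 and 21.4 RPKM in Setd2 null and at 1.51 and 2.23 RPKM (Ezh2 null) against 8.07 and 8.86 RPKM (double null) (log2 fold changes 1.19 and 1.73). Serpine2, a secreted serpin, was at 57.4 and 54.9 RPKM in control and 28.3 and 25.4 RPKM in Setd2 null and at 216 and 192 RPKM (Ezh2 null) against 83.6 and 72.3 RPKM (double null) (log2 fold changes −1.04 and −1.38). In both settings the Setd2-deleted libraries of these 4 genes lay wholly on one side of their comparison libraries. Wfdc18, Glb1, Car12 and Rpl29 were called in the same direction in both as well. The interferon list had a median of 0.40 in Setd2 null against control too, with 4 members called higher there.

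The difference between both effects of Setd2 deletion was tested as an interaction. It was called for 294 genes (192 positive, 1.69%, and 102 negative, 0.9%, in all 2.59% of those tested), and for 235 of the 736 genes called in double null against Ezh2 null. Those 736 were chosen on one side of the interaction, so their count is given as a description. The interaction count was 157 without control 1, 142 without control 2 and 189 without double null 2. For the squamous list 7 of 29 genes had a called interaction, for keratins 7 of 20 and for hypoxia 6 of 21, while the medians of these lists in Setd2 null against control were 0.13, 0.03 and −0.02. Krt16 was at 5.07 and 4.44 RPKM in control and 8.02 and 5.04 RPKM in Setd2 null, with an interaction of 1.99, adjusted p = 0.00703. Ndrg1 was at 300.4 and 274 RPKM in control and 255 and 286 RPKM in Setd2 null, with an interaction of 1.68, adjusted p = 0.00168. Ltf and Clu both fell in the organoids without Ezh2, but the interaction was called for Ltf (−1.46, adjusted p = 0.00844) and not for Clu (−1.0, adjusted p = 0.0941). Xlr3b, an X-linked gene, fell in one setting and rose in the other: it was at 5.77 and 2.92 RPKM in control and 0 and 0 RPKM in Setd2 null and at 1.03 and 1.03 RPKM (Ezh2 null) against 6.62 and 5.7 RPKM (double null), with an interaction of 4.18, adjusted p = 0.000185. Cd200, a surface glycoprotein, was at 1.01 and 3.49 RPKM in control and 43.6 and 54.7 RPKM in Setd2 null and at 3.02 and 2.89 RPKM (Ezh2 null) against 3.23 and 2.57 RPKM (double null), with an interaction of −4.08, adjusted p = 0.00465. Its interaction was not called without Ezh2 null 1 (0.0743), Ezh2 null 2 (0.065) or double null 2 (0.0611). The interactions of Krt16, Ndrg1, Ltf and Clu were not followed through the alternatives.

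**Figure D4:**
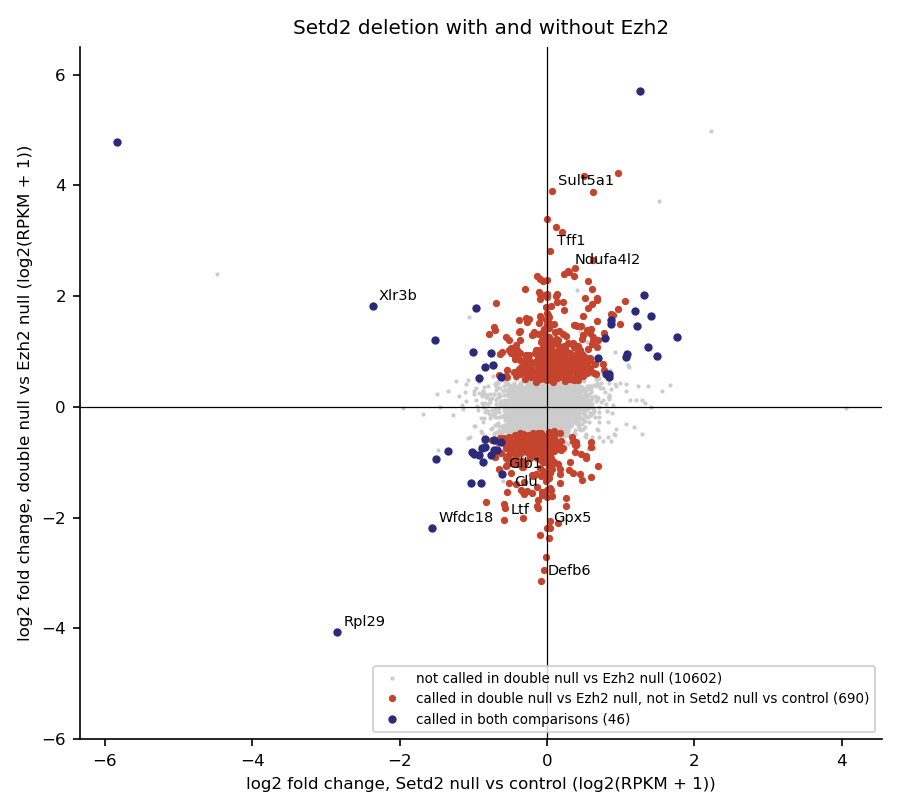
Log2 fold change (log2(RPKM + 1)) of each of 11338 genes on deletion of Setd2 with Ezh2 intact (horizontal axis) and in organoids without Ezh2 (vertical axis). Grey points were not called in double null against Ezh2 null, red points only there, and 46 dark blue points in both comparisons, 36 of them in the same direction, such as Rpl29 at −2.85 and −4.07.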

How the data were processed

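RNA was measured by sequencing of pooled organoid RNA, and 1 deposited table gives RPKM per gene for the 8 libraries used. Per the file headers and the submitters' processing notes, the authors made the RPKM values with tools that include Bowtie and RSEM on mm10. The other samples of the series were not used here, and 0 sample columns of the table stayed unmapped. Of 13748 genes, 13744 gave whole reads within 0.01, which recovered the depth of each library. limma 3.58.1 in R 4.3.3 was fitted to log2(RPKM + 1) of the genes that averaged 1 RPKM or more, with trended, robust variances over 4 groups and no covariate. The fit was tested on simulated data with independent errors in each library, so without the deviations that same-numbered libraries share here. The 50 gene lists and the genes compared were chosen with earlier results of these data known. Named genes were Setd2 and Ezh2, the 15 highest and 15 lowest fold changes among called, non-overlapping genes with at least 5 RPKM in the higher group, the 6 most abundant, the 8 most significant shared with Setd2 null against control, 5 interactions each way, and up to 4 members of each list by smallest p. Predicted genes were left out of that rule, and some genes are not reported here. Promoters came from RefSeq (GRCm38.p6), and base composition was not compared because fewer than 80% of called genes had one (75.1% of higher and 71.6% of lower). Alternatives were quantile and median-ratio scaling, no filter or a mean of 5 RPKM, a pseudocount of 0.1, only the groups compared, a replicate block, voom on recovered reads, a constant prior variance, a 2-fold minimum, and each library left out.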

Additional observations from a re-analysis of the deposited data

Results flagged for a closer look

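The effect of Setd2 deletion differed between organoids with and without Ezh2, by limma's interaction test, in 28 of the genes named for their size, level or interaction. The values are log2 fold change in double null against Ezh2 null minus that in Setd2 null against control. Among squamous, keratin and mucosal genes the interaction was 3.25 for Sprr2d, 1.73 for Sprr1b, 2.40 for Crct1, 2.50 for Krt6b, 1.99 for Krt16, 2.18 for Mt4, 1.53 for Pglyrp4, 2.77 for Tff1 and 2.32 for Tff3. Other positive values were 4.18 for Xlr3b, 3.83 for Sult5a1, 3.39 for Sbpl, 2.29 for Spink1, 2.18 for Ndufa4l2 and 2.14 for Ifi202b. Among secreted and antimicrobial proteins it was -3.06 for Defb6, -2.23 for Sftpd, -2.22 for Csn3, -2.19 for Gpx5, -2.10 for Muc20, -1.46 for Ltf and -1.02 for Mmp7. Other negative values were -4.08 for Cd200, -2.90 for Cryba4, -2.70 for Glb1l3, -1.68 for Gsdmc3, -1.56 for Rprm and -1.22 for Rpl29. The interaction of Sprr2d was called at an adjusted p of 0.033 and was lost when any library of Ezh2 null, double null or Setd2 null was left out, and with a pseudocount of 0.1 (0.167). With voom on recovered reads the interaction was not called for Defb6 (adjusted p = 0.907), Glb1l3 (0.856) or Cryba4 (0.529). Only genes named for the size of their interaction were followed through the alternatives in this test. The other interactions given here are not shown to hold in them. Part of the rule that named these genes used double null against Ezh2 null, which is one side of the interaction. Another part took only genes with a called interaction, such as Xlr3b and Cd200, whose place here was thus fixed in advance. The number of these genes is therefore no measure of how common such differences are. Over all genes tested, 2.59% had a called interaction. Some were near the floor with Ezh2 intact, so that their interaction largely repeats the fold change in double null against Ezh2 null. It was 3.39 beside 3.39 for Sbpl, 2.77 beside 2.81 for Tff1 and 3.83 beside 3.89 for Sult5a1. Sbpl passed the filter only through its double null libraries. Groups of 2 libraries are too small to look for a library that stands apart.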

How the results depend on the processing

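No called gene followed across the alternatives changed sign: of 251 genes, 121 kept the call in each alternative in which they were tested, the 2-fold minimum not counted, and 130 lost it in 1 or more, 123 of them when a single library was left out. Leaving out 1 library gave 361 to 799 calls in double null against Ezh2 null, 24 to 132 in Setd2 null against control, 142 to 278 for the interaction and 6 to 48 shared in the same direction. With a mean of at least 5 RPKM these counts were 465, 62, 146 and 20. A minimum of 2-fold left 241, 43 and 10 (double null against Ezh2 null, Setd2 null against control, and shared), and a fit of only the groups compared left 399, 15 and 5. For Setd2 null against control and the shared genes the counts were 56 and 18 after quantile normalization, 67 and 13 with no filter, 69 and 22 with voom on recovered reads and 66 and 22 with a constant prior variance. Voom gave 151 interactions. The replicate block over 4 groups gave 1078 calls in double null against Ezh2 null, with 725 of the 736 among them, and 231, 469 and 67 for the others, while Krt5 lost its call there (adjusted p = 0.0518). With the replicate block and only the groups compared the counts were 4558, 316 and 158, and 74 of 79 cytosolic ribosomal protein genes were called higher, against 1 without the block. Over the alternatives, the count called higher reached 31 in the interferon list, 22 in sterol and fatty acid synthesis and 18 in glycolysis. The count called lower reached 15 in p53 targets, 13 in MHC class I presentation and 11 in oxidative phosphorylation. Deviations of same-numbered libraries correlated at 0.933 between Ezh2 null and double null and at 0.105 to 0.358 elsewhere. The labels do not say that a number marks a shared batch. Recovered depth was lower in control and Setd2 null, so genes near 1 RPKM were measured with fewer reads there.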
